A study of Mus musculus with 6 samples.

Results

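The nuclear-encoded subunits of the oxidative phosphorylation system were examined in mouse liver that lacks chromogranin A (gene Chga), the precursor of several peptides stored in the granules of neuroendocrine cells. Members were chosen by gene symbol: every gene with a probe set annotated to it alone whose symbol starts with Nduf, Uqcr, Cox4, Cox5, Cox6, Cox7, Cox8 or Atp5, together with Sdha, Sdhb, Sdhc, Sdhd, Cyc1 and Cycs. This gave 86 genes of the 12393 named on the arrays, covered by 160 of 22626 probe sets, and each gene was represented by its brightest probe set. Livers came from 3 chromogranin A knockout mice and 3 wild-type mice, for both of which the labels cite Mahapatra et al., all male and aged 12 weeks, with 1 Affymetrix array per mouse. The labels name neither the genetic background, the feeding state nor the hour of dissection. Each probe set has 1 linear intensity per array, in arbitrary units. P-values measure the spread between these 6 mice alone. Arrays in whole liver tissue cannot tell fewer cells of a type from less RNA per cell.

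The respiratory chain of the inner mitochondrial membrane passes electrons from NADH and succinate to oxygen and pumps protons, and the ATP synthase uses the resulting gradient to make ATP. Complex I oxidises NADH, complex II oxidises succinate, complex III hands electrons from ubiquinol to cytochrome c, complex IV reduces oxygen and complex V is the ATP synthase. Hepatocytes hold many mitochondria, which also serve fatty acid oxidation, urea synthesis and gluconeogenesis. Most subunits are encoded in the nucleus, and the transcription factors NRF-1 and NRF-2 (GABP, of the ETS family) are known to bind the promoters of many of them.

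By complex, the 86 genes comprised 33 subunits of complex I, 4 of complex II, 9 of complex III, 16 of complex IV and 17 of complex V. Ndufa4 was counted with complex IV, where its protein is now placed. The other 7 were the electron carrier cytochrome c (Cycs) and 6 assembly genes that fall under the same prefixes: Ndufaf1, Ndufaf3, Ndufaf4, Ndufaf5, Ndufaf7 and Cox7a2l, a supercomplex factor. Testing was limited to the brightest 60% of probe sets by their mean over all arrays, 13576 in number, and 83 of the 86 genes passed. The 3 that did not were Cox7c, Cox4i2 and Cox8b, at the 39.7th, 32.6th and 13.8th percentiles of mean signal, all of complex IV. Whether the 2 probe sets of Cox7c, both below the limit, report its transcript well was not tested. Cox7a1 passed just inside the limit at the 43.8th percentile. The members were bright as a group, with a median at the 96.7th percentile.

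Promoter sequences are shown for Ndufb7, Sdhd, Cox5a and Ndufs8, to show what they do and do not share. These genes are among the members at an unadjusted p under 0.05 in the limma test given below. Promoters in the RefSeq table (build GRCm38.p6) matched 71 of the 86 genes, with 76 start sites in all, and the 250 bases before each start were searched on both strands for a core of the NRF-1 site, GCGCANGCG, and for the ETS core CCGGAAG. The NRF-1 letters were present in 14 of the 76 windows (18.4%) and in 5.16% of all 32851 promoter windows of that length. The ETS letters were present in 13 of 76 (17.1%) and in 6.91% of all windows, and both in 4 of 76 (5.26%) and in 0.755% of all. In the windows of Ndufb7 and Sdhd below, capitals mark these motifs, and those of Cox5a and Ndufs8 hold neither. The windows of the remaining members at that unadjusted p, Cox5b, Cox6b2, Ndufa7 and Ndufb1, also hold neither and are not shown. The ETS letters begin at position -20 in Ndufb7, and in Sdhd the NRF-1 letters begin at -79 and the ETS letters, on the opposite strand, at -46, counting -1 as the last base before the start. A match of letters is a description and does not show binding.
Ndufb7, chr8:83566508-83566757, plus strand: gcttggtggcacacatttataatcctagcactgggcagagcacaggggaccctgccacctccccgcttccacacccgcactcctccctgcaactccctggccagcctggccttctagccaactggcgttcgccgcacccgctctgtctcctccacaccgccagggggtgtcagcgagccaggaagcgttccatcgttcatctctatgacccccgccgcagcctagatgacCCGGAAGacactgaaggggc
Sdhd, chr9:50603850-50604099, minus strand: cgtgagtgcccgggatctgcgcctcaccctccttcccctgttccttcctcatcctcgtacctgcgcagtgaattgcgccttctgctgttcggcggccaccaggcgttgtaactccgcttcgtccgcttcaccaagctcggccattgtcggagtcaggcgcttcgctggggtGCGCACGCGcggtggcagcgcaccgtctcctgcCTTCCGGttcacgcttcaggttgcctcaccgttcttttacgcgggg
Cox5a, chr9:57520982-57521231, plus strand: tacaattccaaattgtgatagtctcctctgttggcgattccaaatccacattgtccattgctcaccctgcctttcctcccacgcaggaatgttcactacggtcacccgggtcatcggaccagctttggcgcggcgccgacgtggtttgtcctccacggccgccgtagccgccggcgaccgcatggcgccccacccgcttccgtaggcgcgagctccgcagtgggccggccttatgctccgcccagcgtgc
Ndufs8, chr19:3912775-3913024, minus strand: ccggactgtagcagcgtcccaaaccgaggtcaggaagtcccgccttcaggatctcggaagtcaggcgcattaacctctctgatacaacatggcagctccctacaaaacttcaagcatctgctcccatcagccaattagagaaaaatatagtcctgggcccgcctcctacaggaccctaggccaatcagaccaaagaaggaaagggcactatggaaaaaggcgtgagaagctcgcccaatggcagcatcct
Measured members with the NRF-1 letters had a median log2 change (knockout minus wild type) of 0.073 (13 genes), and those without them 0.041 (56 genes). For the ETS letters the medians were 0.12 (13 genes) and 0.041 (56 genes).

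The design asks whether transcripts of the respiratory chain differ in liver when Chga is absent. By limma's moderated test on log2(intensity + 16) with Benjamini-Hochberg adjustment over all 13576 kept probe sets, 0 of the 83 measured members passed an adjusted p of 0.05 in either direction, where 0.192% of all probe sets were called higher and 0.184% lower in knockout. The smallest adjusted p among the members was 0.138. At an unadjusted p under 0.05 there were 8 members (9.64%), 5 higher and 3 lower in knockout, against 4.38% higher and 5.58% lower over all probe sets. That share lies next to the 9.97% found over all probe sets and is no result about these genes. The groups did not overlap for 16 members (19.3%), 12 higher and 4 lower in knockout, beside 7.44% higher and 8.12% lower over all probe sets.

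The intervals were narrow. For 74 of 83 members (89.2%) the 95% confidence interval of the change, taken gene by gene and not adjusted for their number, lay within 1.5-fold in either direction, as it did for 46.3% of all kept probe sets; this bound was set after the values were seen. The interval lay within 2-fold for 81 members, all but Cox6b2 and Cox7a1. The median standard error was 0.096 for the members and 0.19 over all kept probe sets. The 2 sets are unlike in brightness, with median percentiles of mean signal of 96.7 and 70.0. The median change of the members was 0.046 on the log2 scale (1.03-fold), with 53 above 0 and 30 below. Over all kept probe sets the median was -0.018, and 46.8% lay above 0. After quantile normalization the 2 medians were 0.0024 and -0.0029.

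**Figure D1:**
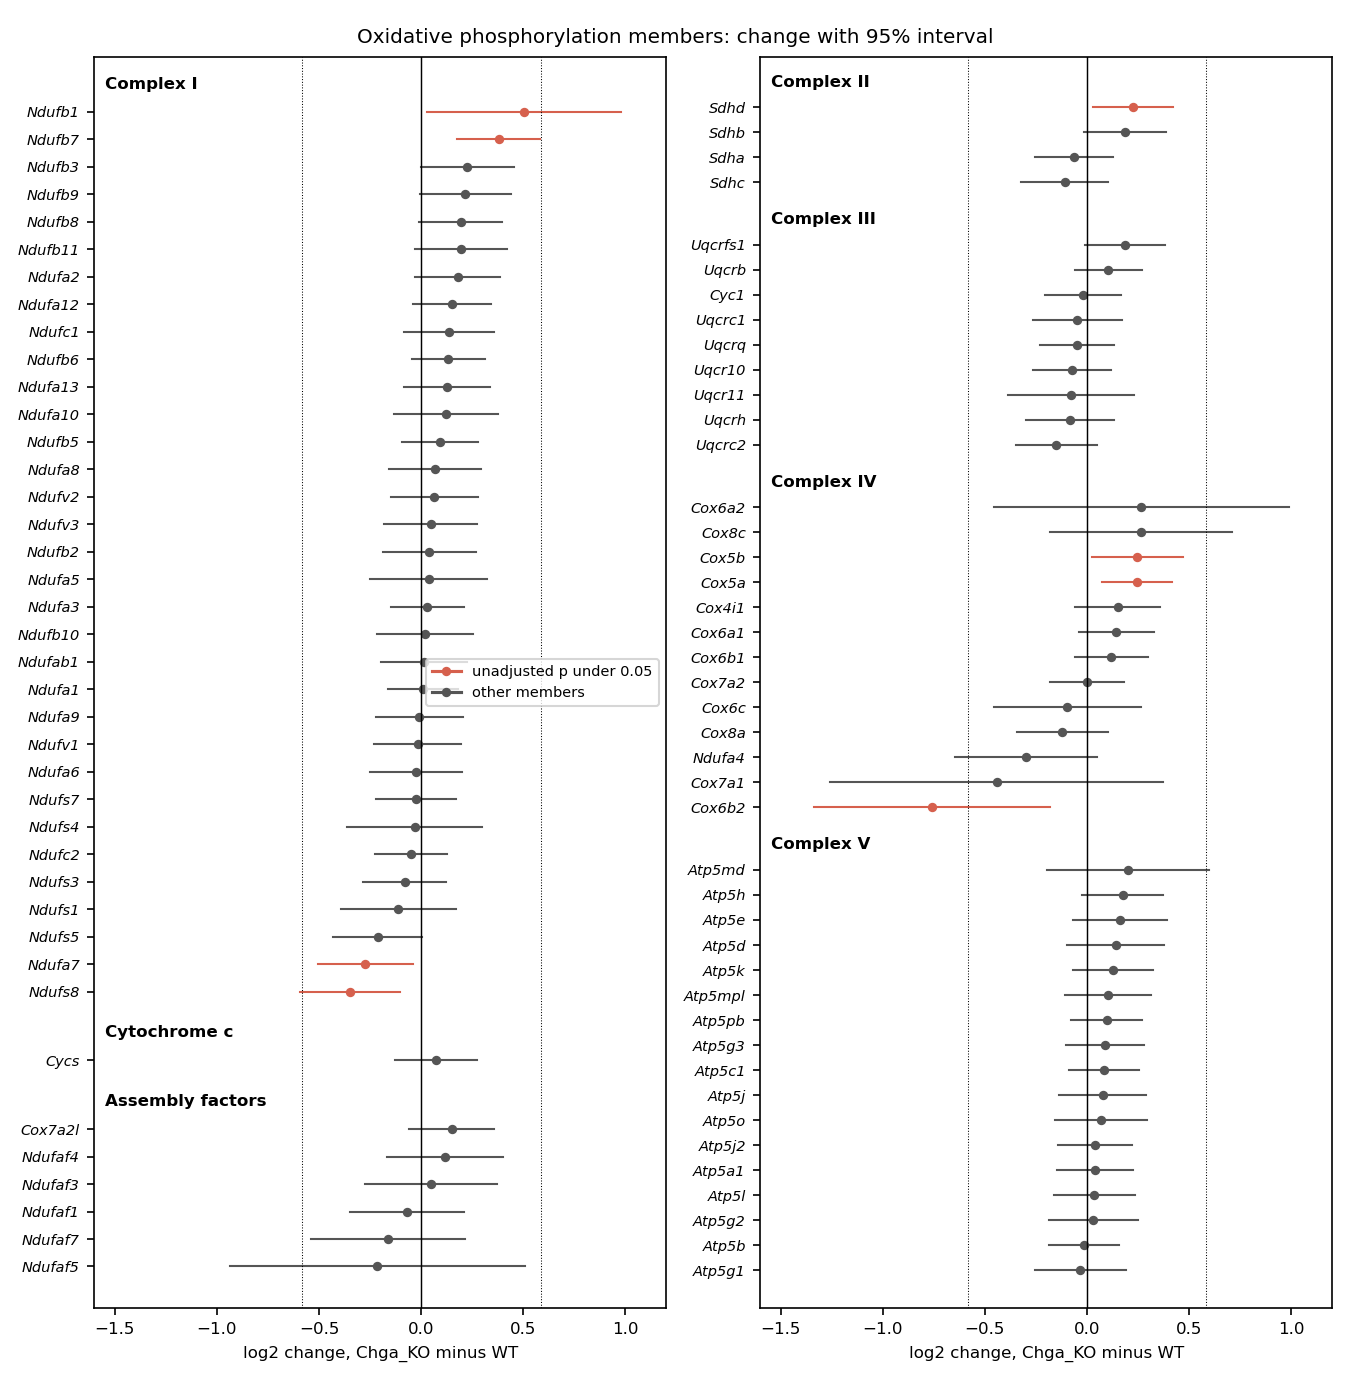
Log2 change, Chga_KO minus WT, of the 83 measured members, grouped by complex (points, limma estimates; bars, 95% intervals not adjusted for the number of genes; dotted lines, 1.5-fold). The 8 members at an unadjusted p under 0.05 are coloured, and most bars lie within the dotted lines.

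Cell type markers gave the following values in the 2 groups, with 0 of them past the adjusted limma threshold, which 0.376% of all kept probe sets passed. At an unadjusted p under 0.05 were 2 stellate markers, both lower in knockout, beside 5.58% lower over all probe sets. The 5 measured hepatocyte markers, such as Alb (albumin), all lay above 0 with a median of 0.14, and their summed intensity was 765657 to 852829 in knockout and 705313 to 778061 in wild-type arrays. Of 10 measured markers of Kupffer cells and macrophages 9 lay below 0, with a median of -0.24 and sums over all 11 listed of 19273 to 31049 in knockout and 24445 to 32076 in wild type. Of the 6 measured stellate cell and matrix markers 6 lay below 0, with a median of -0.35. Endothelial markers leaned little, with 2 of 6 measured above 0 and 4 below, and a median of -0.028. The part of these cell types in the members' values was not tested. Of 8 skeletal and cardiac muscle markers 0 passed the filter on dim probe sets.

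Complex I showed a median change of 0.041 over 33 subunits, 22 above 0 and 11 below, with 2 higher and 2 lower at an unadjusted p under 0.05 (12.1% of the 33, beside 9.97% over all probe sets). After quantile normalization the median was 0.016, and with the dimmest kept probe set of each gene 0.0053. Ndufb7, an accessory subunit of the membrane arm, had the smallest p of all members. It read 23442, 25470 and 24812 in knockout arrays, against 20385, 17713 and 18628 in wild-type arrays. Every knockout array lay above every wild-type array. The change was 0.38 ± 0.093 (SE, n = 3 per group; 1.30-fold; 95% interval on the log2 scale 0.17 to 0.58) at a limma adjusted p of 0.138, and a further probe set of Ndufb7 read 0.19 ± 0.13. Ndufb1, another membrane arm subunit, was much dimmer. It read 1273, 992 and 1439 in knockout arrays, against 973, 886 and 729 in wild-type arrays, and the groups stood apart by a narrow gap (0.50 ± 0.21, adjusted p = 0.476).

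Ndufs8 carries iron-sulphur clusters that take electrons towards ubiquinone and belongs to the catalytic core. Its brightest probe set read 32884, 25521 and 28882 in knockout arrays, against 40876, 34625 and 35387 in wild-type arrays, with all knockout values below all wild-type values (-0.35 ± 0.11, limma adjusted p = 0.298). The other 5 kept probe sets of Ndufs8 pointed the opposite way, with changes of 0.11 to 0.23 and none at an unadjusted p under 0.05. With all kept probe sets of a gene averaged, the change of Ndufs8 was 0.073. The probe sets of this gene therefore give no common direction. Ndufa7, an accessory subunit, read 20290, 21761 and 22292 in knockout arrays, against 28832, 22722 and 26581 in wild-type arrays. The gap between the groups was small beside the wild-type spread (-0.27 ± 0.11, adjusted p = 0.422). Of its other 4 kept probe sets 3 lay below 0, and they ranged from -0.29 to 0.25. The lowest had an unadjusted p of 0.0217 in the same limma fit, with no overlap, and was the only 1 of the 4 under 0.05.

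**Figure D2:**
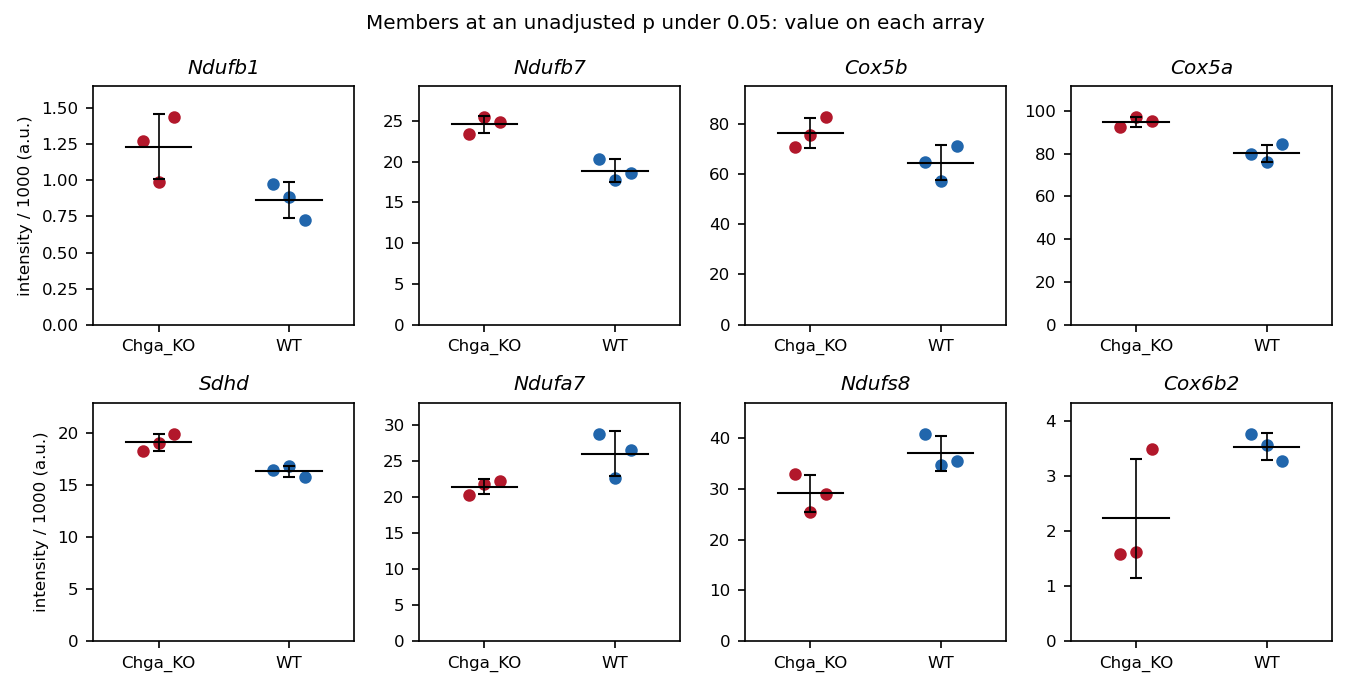
Intensity on each array (arbitrary units, divided by 1000) of the 8 members at an unadjusted p under 0.05, with Chga_KO left and WT right (points, arrays; horizontal line and bar, mean and SD, n = 3). Cox5b and Cox6b2 overlap between groups and the other 6 do not, beside 15.6% of all kept probe sets that do not. The 8 were chosen by their p on these same arrays, which favours groups that stand apart.

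The names of complex I genes come from fractions of the enzyme: Ndufs for the iron-sulphur fraction, Ndufv for the flavoprotein fraction, and Ndufa and Ndufb for the alpha and beta subcomplexes, the beta subcomplex being part of the membrane arm. Grouped this way, a division made after the values were seen and so given without a test, all 10 measured Ndufb genes lay above 0, with a median of 0.19 and a range from 0.020 to 0.50. Over all kept probe sets 46.8% lay above 0. For the symbol families no median after quantile normalization was taken. All 6 measured Ndufs genes lay below 0, with a median of -0.097 and a range from -0.35 to -0.026. Of the Ndufb genes 5 (background 7.44% higher) did not overlap between groups, all higher in knockout: Ndufb1, Ndufb5, Ndufb6, Ndufb7 and Ndufb8. Of the Ndufs genes 2 (background 8.12% lower) did not overlap, Ndufs5 and Ndufs8, both lower. Ndufs5 read 10168, 10456 and 9273 in knockout arrays, against 11122, 12043 and 11464 in wild-type arrays, at -0.21 ± 0.099 (adjusted p = 0.512), while a probe set shared by Ndufs5 and its pseudogene read 0.051 with overlapping groups.

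Other probe sets of the same genes did not carry this division. Of 7 other kept probe sets of Ndufb genes 4 lay above 0, with a median of 0.0053, and of 8 of Ndufs genes 6 lay above 0, of which 5 belong to Ndufs8. The dimmest kept probe set of each gene gave 7 of 10 Ndufb genes above 0 and 4 of 6 Ndufs genes below 0. The Ndufa genes, a mixed group of matrix and membrane subunits, had a median of 0.037 (8 of 11 above 0), the 3 Ndufv genes 0.047, and Ndufab1, the mitochondrial acyl carrier protein, stood at 0.015 ± 0.096. By catalytic role, the core subunits, 6 of which were measured, had a median of -0.054 and the 27 other subunits 0.068. Probe sets shared between several genes lay outside the rule. They read 0.11 and 0.077 for Ndufb4 with its copies, 0.078 for Ndufa11, -0.0082 for Ndufs6 and 0.028 for Ndufab1 with its pseudogene. A dim one shared by Ndufb2 and Adck2 read -0.37 ± 0.44.

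**Figure D3:**
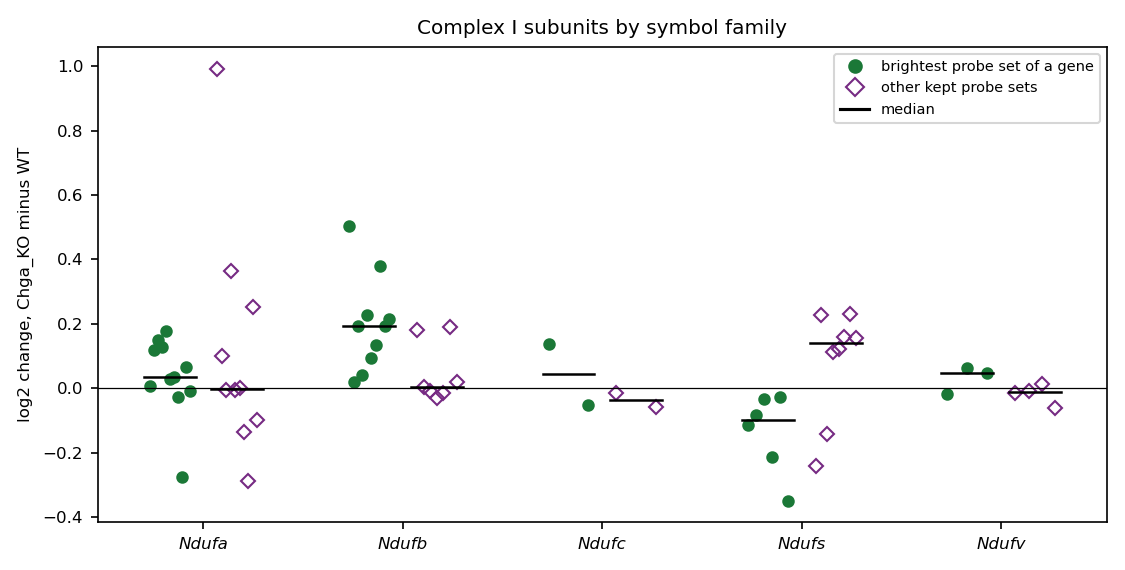
Log2 change, Chga_KO minus WT, of complex I subunits by symbol family, for the brightest probe set of each gene (filled circles) and the other kept probe sets (open diamonds), with medians as lines. The brightest probe sets of Ndufb lie above 0 and those of Ndufs below 0, while the other probe sets of both families do not follow.

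Complex II, which also acts in the citric acid cycle, held 4 subunits with a median change of 0.061 (0.017 after quantile normalization and 0.19 with the dimmest kept probe sets), 2 above 0 and 2 below. Sdhd, a membrane anchor, read 18325, 19033 and 19956 in knockout arrays, against 16408, 16848 and 15803 in wild-type arrays. The groups did not overlap (0.22 ± 0.089 SE, 1.17-fold, limma adjusted p = 0.445), and the other probe set of Sdhd stood at 0.20 ± 0.18. Sdhb, the iron-sulphur subunit, read 58284, 60374 and 70151 in knockout arrays, against 55858, 52916 and 56836 in wild-type arrays, again without overlap (0.19 ± 0.091, adjusted p = 0.549). Sdha, the flavoprotein that oxidises succinate, averaged 42665 ± 3179 in knockout and 44516 ± 1257 in wild type (SD, n = 3 each), a change of -0.064. Sdhc, the other membrane anchor, averaged 14550 ± 1106 in knockout and 15670 ± 463 in wild type, a change of -0.11, with a second probe set at 0.28 ± 0.14.

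Complex III had the only negative median of the 5 complexes, -0.049 over 9 subunits, with 7 below 0 and 2 above. Every interval lay within 1.5-fold, from 0.765-fold to 1.30-fold at the extremes, and 0 subunits reached an unadjusted p of 0.05. Uqcrc2, a core protein, read 28796, 33666 and 32485 in knockout arrays, against 34259, 34991 and 36005 in wild-type arrays, at -0.15 ± 0.090 with no overlap. Its other kept probe set read 0.081. Uqcrfs1, the Rieske iron-sulphur protein, lay on the other side, with 29915, 26530 and 29774 in knockout arrays, against 25232, 25888 and 24584 in wild-type arrays (0.19 ± 0.088), also with no overlap. These were the only 2 of the 9 subunits without overlap (22.2%, beside 15.6% of all kept probe sets). The small subunits Uqcrh (-0.083 ± 0.097) and Uqcrb (0.10 ± 0.074) overlapped between groups, and the other kept probe set of Uqcrb read -0.064. Cyc1, the cytochrome c1 of the complex, stood at -0.020 ± 0.085 and Cycs, its soluble electron acceptor, at 0.073 ± 0.090, with other probe sets of Cycs at 0.087 and 0.18.

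Complex IV had a median change of 0.12 over 13 measured subunits, and 8 intervals lay within 1.5-fold. That median was 0.019 after quantile normalization and 0.033 with the mean of all kept probe sets, and turned to -0.0045 with no filter on dim probe sets and -0.00026 with the dimmest kept probe sets. Cox5a, which is part of the matrix side of the enzyme, read 92353, 97154 and 95285 in knockout arrays, against 79668, 76342 and 84470 in wild-type arrays. The groups stood clearly apart, at 0.24 ± 0.077 (1.18-fold, 95% interval 1.05 to 1.33, adjusted p = 0.284), and the other 2 probe sets of Cox5a read 0.16 (unadjusted p = 0.0773) and 0.25 (unadjusted p = 0.0454) in the same limma fit. Cox5b, a zinc-binding subunit, read 70674, 75737 and 82767 in knockout arrays, against 64727, 57395 and 71352 in wild-type arrays, with overlap (0.25 ± 0.10, adjusted p = 0.449). Its other 4 kept probe sets all lay above 0, from 0.029 to 0.37. Ndufa4 read 13287, 12926 and 10452 in knockout arrays, against 16838, 17057 and 11610 in wild-type arrays (-0.30 ± 0.16), and the third replicate of each group was its lowest.

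Several complex IV subunits exist as isoforms, and the widespread forms are given before those of single tissues. Cox4i1 averaged 86454 ± 8946 in knockout and 77747 ± 4754 in wild type (SD, n = 3 each), a change of 0.15 ± 0.095 (SE). Cox6a1 stood at 0.14 ± 0.083, with its other kept probe set at -0.079. Cox6b1 stood at 0.12 ± 0.081, Cox7a2 at 0.00032 ± 0.082 and Cox8a at -0.12 ± 0.10. For Cox7a2 the interval ran from 0.883-fold to 1.13-fold. Of the forms known from heart and skeletal muscle, Cox6a2 read 497, 998 and 600 in knockout arrays, against 600, 410 and 684 in wild-type arrays (0.27 ± 0.33), and Cox7a1 read 359, 512 and 236 in knockout, against 460, 439 and 563 in wild type (-0.44 ± 0.37). Both overlapped between groups, and Cox8b and the lung form Cox4i2 were too dim to be tested. Cox8c, known from testis, stood at 0.26 ± 0.20.

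Cox6b2, the form of Cox6b known from testis, had the largest change of all members in size. It read 1588, 1617 and 3484 in knockout arrays, against 3771, 3560 and 3280 in wild-type arrays. Knockout replicates 1 and 2 were low and replicate 3 lay within the wild-type range. The change was -0.76 ± 0.26 (SE) at a limma adjusted p of 0.350. Without knockout replicate 3 the change of Cox6b2 was -1.13 at a limma adjusted p of 0.0121. This was the only call among the members under any setting tried, in a fit that called 48 of 13576 kept probe sets. Leaving out the knockout array within the wild-type range lowers the knockout spread by construction, so no conclusion is drawn from that call. Over its 20 alternatives the change ranged from -1.13 to -0.54.

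Complex V had the narrowest range of changes of the 5 complexes. Its median was 0.084 over 17 subunits (1.06-fold), 15 above 0 and 2 below, beside 46.8% above 0 over all kept probe sets. The range was from -0.034 to 0.20, with 0 subunits at an unadjusted p under 0.05. After quantile normalization the median was 0.020. The intervals of 16 subunits lay within 1.5-fold, and that of Atp5md, a small membrane subunit, reached 1.51-fold. Atp5md read 39835, 27367 and 35176 in knockout arrays, against 31684, 36032 and 22164 in wild-type arrays, a spread within each group larger than the difference (0.20 ± 0.18). Atp5b, the catalytic beta subunit, read 63979, 71168 and 67134 in knockout arrays, against 67646, 67889 and 68410 in wild-type arrays, a change of -0.013 ± 0.078 with an interval from 0.879-fold to 1.12-fold. Atp5a1, the alpha subunit, stood at 0.039 ± 0.083. Atp5h, part of the peripheral stalk, was highest but for Atp5md, at 0.17 ± 0.090, with 77150, 92089 and 80104 in knockout arrays, against 77675, 71706 and 71104 in wild-type arrays. The genes Atp5g1, Atp5g2 and Atp5g3 encode the same mature c subunit of the rotor, and stood at -0.034 ± 0.10, 0.031 ± 0.099 and 0.089 ± 0.086, all with overlapping groups. Only Atp5k did not overlap (5.88% of the 17, beside 15.6% over all kept probe sets). Its values were 45893, 46084 and 52801 in knockout arrays, against 44122, 42561 and 45628 in wild-type arrays (0.13 ± 0.088).

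**Figure D4:**
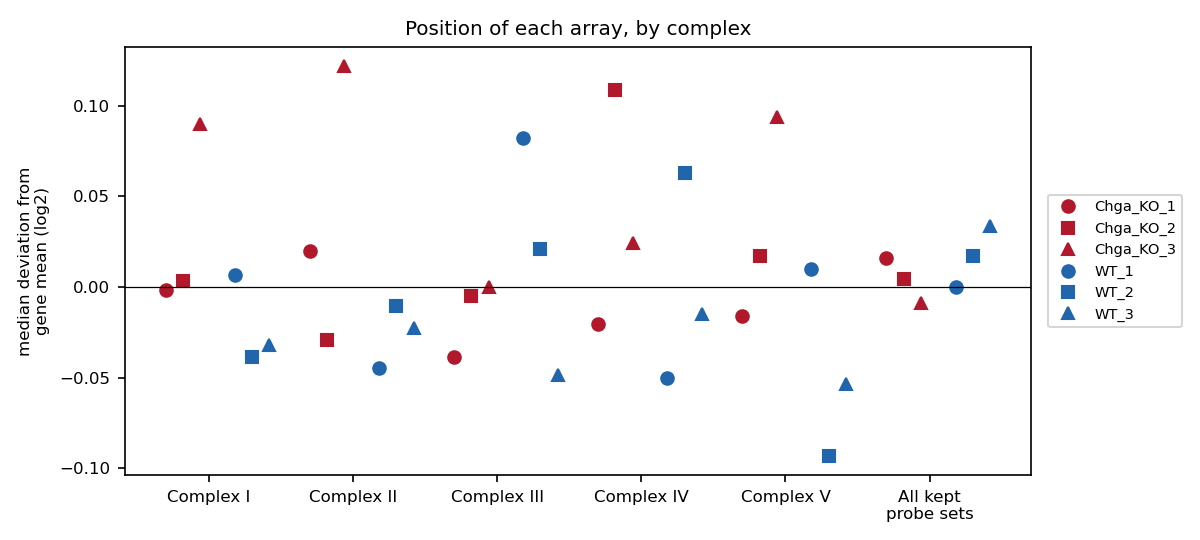
Median over the measured subunits of each complex of the deviation from the gene's mean over the 6 arrays (log2), for each array, with all kept probe sets at the right (red, Chga_KO; blue, WT; symbols, replicates). Knockout replicate 3 is the highest array in complexes I, II and V, and the groups overlap in all 5 complexes.

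The complexes differed in which array stood highest. Knockout replicate 3 stood highest in complexes I, II and V, at 0.090, 0.12 and 0.094 above the gene means on the log2 scale, while knockout replicate 1 stood at -0.0019, 0.020 and -0.016 in them. In complex III the highest array was wild-type replicate 1 (0.082) and in complex IV knockout replicate 2 (0.11). Of the variance over the 83 members 35.5% fell on a first principal component, which placed knockout replicates 2 and 3 at -1.15 and -1.11, and knockout replicate 1 at 0.24 with the wild-type arrays, at 0.30, 1.24 and 0.48. Without knockout replicate 1 the number of members at an unadjusted p under 0.05 was 15 of 84 (12.4% of all kept probe sets in that fit). It was 5 of 84 without knockout replicate 3 (8.89% of all kept probe sets in that fit). Without wild-type replicate 1 it was 4 of 83 (8.09% of all kept probe sets in that fit). The only adjusted call was that of Cox6b2.

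Other genes that serve the same system also gave 0 calls by limma at an adjusted p of 0.05, where 0.376% of all kept probe sets were called. With so low a share, 0 calls in lists of this size is no result about these genes. Of 33 measured assembly factors, a list that includes the Ndufaf genes above, 17 lay above 0 and 16 below (median 0.012), with 1 higher and 5 lower in knockout at an unadjusted p under 0.05, beside 4.38% higher and 5.58% lower over all probe sets. All 6 are named after their values were seen. The higher one was Acad9, an acyl-CoA dehydrogenase that helps to assemble complex I. It read 2603, 1628 and 2236 in knockout arrays, against 1354, 1249 and 953 in wild-type arrays, with no overlap (0.84 ± 0.21, adjusted p = 0.150). The 5 lower ones were Bcs1l (-0.53 ± 0.19), which inserts the Rieske protein into complex III, Atpaf2 (-0.47 ± 0.19), which serves the ATP synthase, and Cox15 (-0.41 ± 0.13), Coa7 (-0.38 ± 0.17) and Sco2 (-0.32 ± 0.14), which serve complex IV. The groups overlapped for Sco2 and not for the other 4, where 8.12% of all probe sets stood apart and lower. These 5 genes were picked by their p on the same arrays, which favours groups that stand apart. Their adjusted p in limma ran from 0.314 to 0.493. The only mitochondrially encoded subunit measured, ND5 of complex I, read 160750, 168973 and 181439 in knockout arrays, against 154365, 142439 and 155244 in wild-type arrays, also apart (0.18 ± 0.079, adjusted p = 0.497).

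Transport of substrates and product showed 7 of 8 measured carriers, porins and the ATP synthase inhibitor above 0, with a median of 0.13. At an unadjusted p under 0.05 there was 1, the porin Vdac3 (0.22 ± 0.097), beside 4.38% higher over all probe sets. The phosphate carrier Slc25a3 stood at 0.089 ± 0.079, the ADP/ATP carriers Slc25a4 and Slc25a5 at -0.018 ± 0.30 and 0.053 ± 0.078, and Atpif1, which inhibits the ATP synthase when it runs in reverse, at 0.27 ± 0.16. Electron donors to ubiquinone other than complexes I and II had 4 of 8 genes above 0 (median 0.039). At an unadjusted p under 0.05 there was 1, the sulfide oxidase Sqor (0.25 ± 0.096), beside the same 4.38%. Ubiquinone synthesis had 3 of 8 above 0 (median -0.078) and 0 at that level. Of 18 regulators of mitochondrial gene expression 12 lay below 0 (median -0.032), with 0 higher and 3 lower at an unadjusted p under 0.05, beside 4.38% higher and 5.58% lower over all probe sets. The 3, named after their values were seen, were Gabpa, Ppargc1b and Tfb2m. Gabpa, the DNA-binding subunit of GABP (NRF-2), read 3134, 2969 and 2699 in knockout arrays, against 3406, 4473 and 4072 in wild-type arrays, with no overlap (-0.43 ± 0.14, limma adjusted p = 0.314). The coactivator Ppargc1b stood at -0.49 ± 0.16 (adjusted p = 0.306), also without overlap, and Tfb2m, a mitochondrial transcription factor, at -0.78 ± 0.27 (adjusted p = 0.355) with overlap. The coactivator Ppargc1a stood at -0.20 ± 0.17 and Tfam, which packs and transcribes mitochondrial DNA, at -0.093 ± 0.12.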

How the data were processed

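Liver RNA of 6 mice was hybridised to Affymetrix arrays, 1 per mouse. Per the submitters' processing notes GCOS 1.2 was used. The deposited values are linear intensities, 1 per probe set and array; array means, with the top and bottom 2% of values dropped, were 2501.32 to 2501.42, so arrays had been scaled alike, by a rule not given in the sources used here. From the table of 22690 probe sets 64 controls were left out. Genes came from the platform annotation, updated through RefSeq (GRCm38.p6). The files name no genome build.

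Values were tested as log2(intensity + 16), which understates changes of dim probe sets, with limma 3.58.1 in R 4.3.3 (lmFit, eBayes with an intensity trend, two-sided, no covariate), on the 13576 probe sets in the upper 60% by mean, with Benjamini-Hochberg over all of them. Errors are SE of the fit or SD over 3 arrays. The number of arrays limits the precision; an exact permutation test of 3 against 3 cannot go below p = 0.1 and was not used. The fit was tested on simulated data. Members, gene lists and tests were chosen with earlier results of these data known. Named were all members at an unadjusted p under 0.05, the 2 highest and 2 lowest changes of complexes I, III, IV and V, complex II, Cyc1, Cycs, tissue isoforms, genes whose kept probe sets differed by over 1 (log2), and key carriers and regulators. Others are named as members whose groups do not overlap or as chosen after their values were seen. Of the measured members, 11 have a brightest probe set ending in _s_at and 5 in _x_at, which can also bind related transcripts, and many of these genes have processed pseudogenes, so what those probe sets measured is uncertain.

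Array replicates were taken from the titles. Same-numbered arrays deviated from their group means with correlations of -0.0589, -0.06 and -0.0651 over probe sets, which gave no sign of pairing by number. Deviations were taken within groups of 3, so these values cannot exclude that the numbers pair the mice. Array pairs correlated between 0.964 and 0.974 within groups and 0.96 and 0.967 across groups, and 0 pairs were identical. Alternatives were pseudocounts of 1, 64 and 256, quantile normalization, median centring, no filter or the upper 40%, no trend, array weights, the replicate block, the mean or dimmest probe set of a gene, the platform's own symbols, and each array left out. A pseudocount of 1000 was added after seeing the data.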

Additional observations from a re-analysis of the deposited data

How the results depend on the processing

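With 14 alternatives of scaling, filter, pseudocount, model and probe set choice the number of called members stayed at 0 throughout; with 1 array left out it was 0 to 1. The number at an unadjusted p under 0.05, 8 as reported, was 3 without the intensity trend (all kept probe sets: 8.95%). It was 4 with the dimmest kept probe set per gene (all kept: 9.97%) and 4 to 15 with 1 array left out (all kept: 7.42% to 12.4%). The number whose groups do not overlap, 16 as reported, was 10 with the mean of all kept probe sets of a gene and 8 with the dimmest. Beside the dimmest the share over all kept probe sets was 15.6%, and for the mean no such share was taken. With 1 array left out the number was 20 to 34, where fewer arrays overlap less often by construction (23.8% to 30.5% of all probe sets). The median of complex I was 0.023 to 0.090 with 1 array left out. That of complex II was 0.14 with the mean and 0.19 with the dimmest probe set. The median of complex IV was 0.019 after quantile normalization, -0.0045 with no filter on dim probe sets (16 genes), 0.033 with the mean and -0.00026 with the dimmest probe set, and 0.042 to 0.13 with 1 array left out. That of complex V was 0.020 and that of all members 0.0024 after quantile normalization. The cause of these differences was not tested. With the replicate block, which rests on numbers not known to pair the mice, 0 members passed. In that fit 7 were at an unadjusted p under 0.05 (all kept probe sets: 8.26%). Of 638 values of the 32 named members over 20 alternatives, 613 moved by less than the spread between replicates, 24 moved further, 29 changed sign in 15 genes, and 1 passed the threshold. Calls among the other mitochondrial lists were 0 under all alternatives run. Over all kept probe sets the calls ranged from 7 without the intensity trend to 93 with a pseudocount of 1000. For the mean of all kept probe sets of a gene no such count was taken.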

Other observations

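Uqcr10, a small subunit of complex III, was the only member whose kept probe sets differed by more than 1 on the log2 scale. Its brightest probe set was steady, at 21311, 20923 and 21343 in knockout arrays, against 23167, 22500 and 21267 in wild-type arrays. A dimmer probe set read 3368, 3575 and 513 in knockout arrays, against 242, 156 and 2626 in wild-type arrays (1.93 ± 0.95 SE, limma adjusted p = 0.549). Another read 5945, 5367 and 677 in knockout arrays, against 1712, 1645 and 6568 in wild-type arrays (0.078 ± 0.75). In both, knockout replicates 1 and 2 and wild-type replicate 3 were high and the other 3 arrays low, a division that cuts across genotype. The second principal component of all kept probe sets, with 21.9% of the variance, set the same arrays on its 2 sides, with -18.6, -22.2 and 27.4 in knockout replicates 1, 2 and 3 and 14.1, 6.45 and -7.26 in those of wild type. Its relation to the Uqcr10 values was not tested.

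A dim second probe set of Ndufa10, an accessory subunit of complex I, read 480, 635 and 632 in knockout arrays, against 282, 348 and 229 in wild-type arrays, with no overlap (0.99 ± 0.34, limma adjusted p = 0.349). The brightest probe set of Ndufa10 read 0.12 ± 0.12. Over all members, 40 of 64 other kept probe sets had the sign of the brightest probe set of their gene and 24 the opposite sign.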
